A study of Homo sapiens with 8 samples.

Results

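The response of control SK-N-MC cells to low oxygen was described from 4 of the 8 RNA-seq libraries of a study of the gene LOXHD1 in Ewing sarcoma, a childhood tumour of bone and soft tissue. SK-N-MC is an established Ewing sarcoma cell line. The cells of these 8 libraries carried lentiviral dCas9-KRAB, a Cas9 that cannot cut fused to a transcriptional repressor, and were selected with puromycin. The paper also calls the control cells parental. The control cells received the vector without a guide, whereas in eKD1 and eKD2 cells a guide brought the repressor to the GGAA repeat that acts as an enhancer of LOXHD1. Control cells were kept either in normoxia (2 libraries) or in a chamber with 1% oxygen for 16 h (2 libraries, hypoxia), and both kinds of eKD library are labelled as hypoxia, although the treatment note in the labels names only control and eKD1 cells. The cells were pools rather than clones, and the study calls the duplicates biological, but the labels do not say whether they came from separate cultures, so the p-values measure only the spread between these libraries.

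Expression was given as FPKM, a fragment level relative to transcript length and to the mapped total, that can be compared between genes because it is divided by length. Genes entered the test at 5 FPKM or more in at least 2 of the 4 control libraries. Of the 60332 genes in the table, 10814 passed, 9900 of them protein-coding. Changes are differences of log2(FPKM + 1), hypoxia minus normoxia, a scale that understates the change of low genes. The call threshold was an adjusted p of 0.05 (limma, 2 against 2 libraries, Benjamini-Hochberg over all 10814 genes), and "rose" and "fell" below refer to called genes. Library values are given as replicate 1, then replicate 2. For each called gene named here the 2 groups did not overlap. Of the tested genes, 741 passed the filter through 1 group only, the group in which they were high. Such a gene had to differ, so its values are a description and its call supports nothing, and the number of these genes is given beside the lists that held 1 or more.

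A cell that lacks oxygen stabilises the hypoxia-inducible factors (HIF), which bind DNA with a partner and switch on genes for glucose uptake, glycolysis, acid export and vessel growth. Beyond this classical set, low oxygen is known to touch processes that cost energy or oxygen: the making of ribosomes, cell division, protein folding, lipid synthesis and the deposition of collagen. Ewing sarcoma cells are driven by a fusion of EWSR1 and FLI1 that turns on one set of genes and turns down a mesenchymal set.

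The labelled cell type was checked against marker genes. All 10 Ewing markers, among them CD99, NR0B1, NKX2-2 and STEAP1, were at 5 FPKM or more in each control library. Of the neuroblastoma markers, HAND2 was at 12 to 18.2 FPKM and GATA3 at 1.59 to 7.25 FPKM, while TH and DBH were listed at 0 in all 4 libraries. KRT18, of epithelia, was at 74.8 to 117 FPKM, and the other epithelial markers reached at most 5.80 FPKM. Muscle markers (MYOD1, MYOG and DES) and the endothelial markers analysed here (CDH5 and KDR) stayed under 1 FPKM. 1 blood cell marker, PTPRC, was listed at 22.5 and 23.8 FPKM in normoxia and 4.87 and 5.39 FPKM in hypoxia, although CD3E was listed at 0 in all 4 libraries and CD68 reached at most 5.98 FPKM. Of 7 fibroblast markers, 6 were at 5 FPKM or more in each library. In such bulk libraries, fewer cells of a kind and less RNA per cell cannot be told apart.

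The absolute depth is unknown. Relative to replicate 1 of hypoxia, low values gave a depth of 95.9% for replicate 2 of hypoxia and of 76.0% and 55.7% for the normoxia libraries. Across tested genes, duplicates correlated at r = 0.941 in normoxia and 0.960 in hypoxia, against 0.882 to 0.889 between the conditions (genes are not independent replicates). Along the first principal component, with 64.2% of the variance, the conditions lay apart, and along the second, with 21.4%, the 2 normoxia libraries lay apart from each other.

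Of the tested genes, 4924 were called (45.5%), with 2422 higher in hypoxia (22.4%) and 2502 lower (23.1%). Rises of at least 2-fold were called for 634 genes (5.86%) and falls of at least 2-fold for 485 (4.48%). The calls depended on having both hypoxia libraries: without control hypoxia replicate 1, 1469 genes were called, and without replicate 2, 1548. The direction balance depended on the scaling. The summed FPKM was 865107 and 877580 in normoxia and 1041457 and 1018475 in hypoxia, and when totals were made equal the median of all genes moved from -0.01 to -0.24, with 1474 genes called higher and 3949 lower. Under median-of-ratios scaling, which assumes that most genes do not change, 2464 were higher and 2494 lower.

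**Figure D1:**
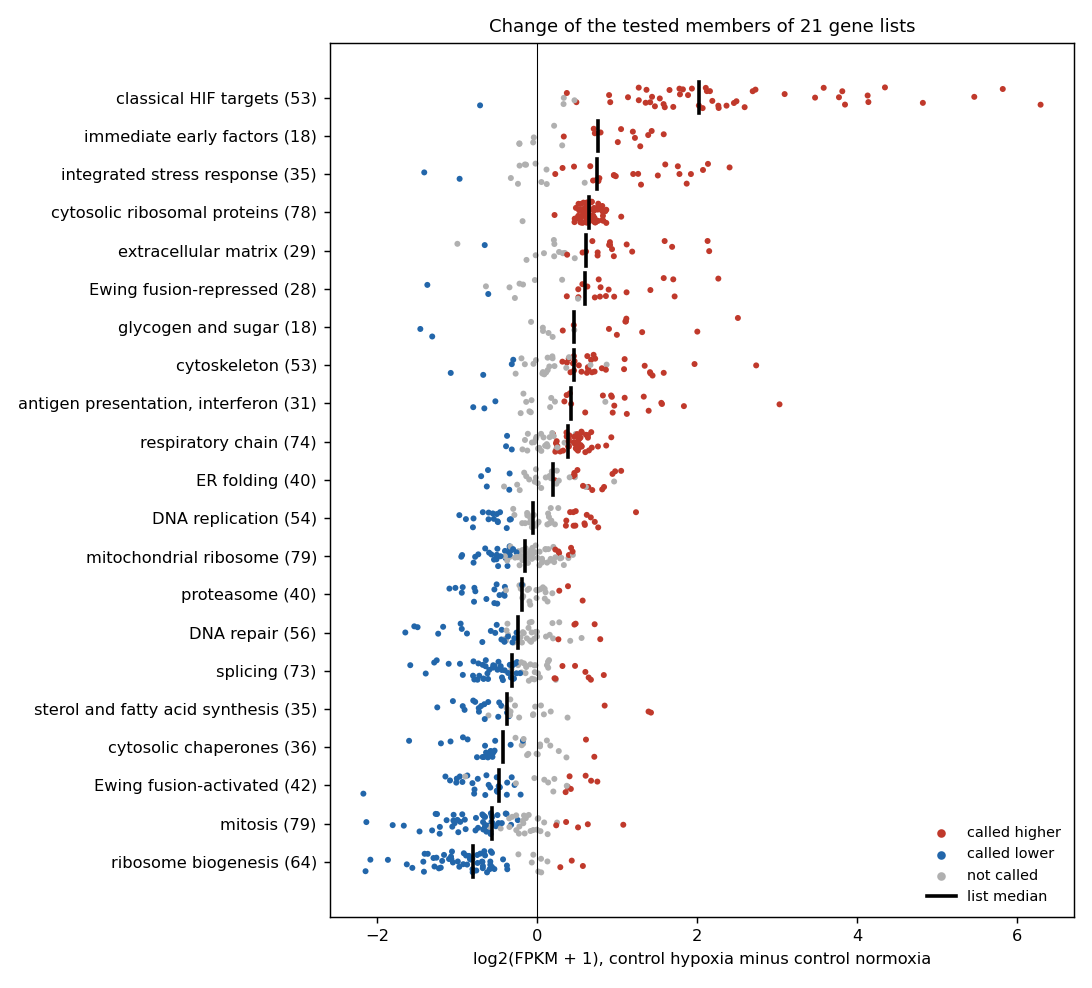
Difference of log2(FPKM + 1) between control hypoxia and control normoxia for each tested member of 21 gene lists. Each point is a gene, the number in brackets is the tested members, colours give the call and the bar is the list median, which runs from 2.02 for classical HIF targets to -0.81 for ribosome biogenesis.

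The classical HIF targets served as a check of the treatment, although not an independent one. Like the other lists, this one was chosen with earlier results of these data known. Of 62 listed genes, 53 were tested (14 of them passed only through the hypoxia or only through the normoxia libraries), 49 rose and 1 fell, with a median log2 change of 2.02, against -0.01 over all genes. The calls of these 14 add nothing to the check, although the counts and the median include them. Groups that did not overlap were common in this comparison, at 76.2% of all tested genes. CA9, a carbonic anhydrase of the cell surface, was listed at 0 throughout normoxia, against 82.8 and 72 FPKM in hypoxia. DDIT4, an inhibitor of the growth kinase mTORC1, rose from 7.53 and 7.58 to 486 and 477 FPKM (log2 change 5.82, SE 0.07, adjusted p = 0.00023). ALDOC, a glycolytic aldolase, rose from 2.18 and 2.33 to 145 and 139.7 FPKM. CA9 and ALDOC passed the filter through hypoxia only. The sole fall was TFRC, the transferrin receptor (from 285 and 279 to 192 and 154 FPKM, log2 change -0.71, adjusted p = 0.013). HIF1A, which encodes the alpha subunit itself, fell at the RNA level: it was at 104 and 116 FPKM in normoxia and 33.3 and 39 FPKM in hypoxia (log2 change -1.58, SE 0.11, adjusted p = 0.0033).

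Some genes of the response were listed at 0 under both conditions or were too low to be tested. EGLN3, a prolyl hydroxylase of HIF, was listed at 0 in all 4 control libraries, which in a file without counts need not mean that it was not expressed. EPAS1, which encodes another HIF alpha subunit, was at 0 in 3 of them and at 0.188 FPKM in hypoxia replicate 2. BHLHE40, a repressor often used as a hypoxia marker, reached 2.09 and 2.75 FPKM in hypoxia and was below the filter.

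Outside the HIF list, 30 protein-coding genes were taken for their size of change, 15 rises and 15 falls, each averaging 10 FPKM or more in whichever group was higher and with no overlap between the groups. They were chosen on these values, which are given as a description. Many of them also passed the filter through 1 group only, so their calls support nothing. Among the rises, STC1, FUT11, PCK2, PYGL, ANG, C4orf47, SLC27A3, TMSB4X and IFITM2 passed through hypoxia only. The falls that passed through normoxia only included PPP1R10, ZC3H4, SPHK2, LCMT2, LBHD1 and MROH6. STC1, a secreted glycoprotein hormone, stood at 0.0582 and 0.119 FPKM in normoxia and 26.2 and 29.1 FPKM in hypoxia. TXNIP (chromosome 1, 145438490 to 145442635, plus strand, GRCh37), an arrestin that binds thioredoxin and lowers glucose uptake, was at 6.48 and 7.84 FPKM in normoxia and 88.6 and 101 FPKM in hypoxia. FUT11 (chromosome 10, 75532034 to 75540009, plus strand), a fucosyltransferase, was at 0.999 and 1.29 FPKM in normoxia and 16.6 and 17.4 FPKM in hypoxia. For these 3 genes, the lower of the hypoxia libraries was more than 10-fold above the higher of the normoxia libraries.

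The other 12 rises spanned several functions. PCK2 (chromosome 14, 24563262 to 24579807, plus strand), the mitochondrial enzyme that makes phosphoenolpyruvate, was at 2.85 and 4.19 FPKM in normoxia and 26.6 and 30.6 FPKM in hypoxia. PYGL, a glycogen phosphorylase, was at 1.74 and 2.54 FPKM in normoxia and 16.4 and 17.1 FPKM in hypoxia. S100A10, a partner of annexin A2 at the membrane, was at 16.6 and 20.6 FPKM in normoxia and 123 and 107 FPKM in hypoxia. PNRC1, a nuclear receptor coregulator, was at 16.4 and 19.4 FPKM in normoxia and 107 and 100.5 FPKM in hypoxia. PRAC1, a small nuclear protein encoded beside the HOXB cluster, was the highest of these genes, at 75.3 and 81.6 FPKM in normoxia and 432 and 421 FPKM in hypoxia. ANG, a secreted ribonuclease, C4orf47, SLC27A3, an acyl-CoA synthetase, TMSB4X, an actin-binding peptide, IFITM2 and ATF3 completed the group with a second row of MATR3. IFITM2 differed most between its hypoxia libraries (45.0 and 15.2 FPKM). The MATR3 row shares 92.4% of its exonic bases with another gene of the annotation, and the main MATR3 row was at 604 and 557 FPKM in normoxia and 539 and 525 FPKM in hypoxia and was not called, so the value of the second row is uncertain.

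Of the 15 largest falls, EHMT1 (chromosome 9, 140513444 to 140764468, plus strand), a histone methyltransferase, came first, at 179 and 383 FPKM in normoxia and 34.5 and 33.4 FPKM in hypoxia, and its normoxia libraries differed by more than 2-fold. PPP1R10, a nuclear regulator of protein phosphatase 1, was at 30.1 and 29.7 FPKM in normoxia and 4.39 and 3.84 FPKM in hypoxia. PIF1, a DNA helicase, was at 31.2 and 36.1 FPKM in normoxia and 4.6 and 5.31 FPKM in hypoxia. ZMYND8, a reader of acetylated chromatin, was at 36.8 and 41 FPKM in normoxia and 9.59 and 5.26 FPKM in hypoxia, and ZC3H4, which restrains non-coding transcription, at 17.7 and 17.6 FPKM in normoxia and 1.9 and 3.47 FPKM in hypoxia. LIPI, a lipase gene typical of Ewing tumours, was at 49.5 and 57.2 FPKM in normoxia and 10.8 and 11.2 FPKM in hypoxia. SPHK2, a sphingosine kinase, NAPRT, which starts NAD synthesis from nicotinic acid, the tRNA-modifying enzyme LCMT2, CPEB2, a regulator of translation, LBHD1, MROH6 and 3 genes described with their programs (RRS1, RRP9 and CENPE) made up the rest. LBHD1 shares 55.7% of its exonic bases with other genes.

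**Figure D2:**
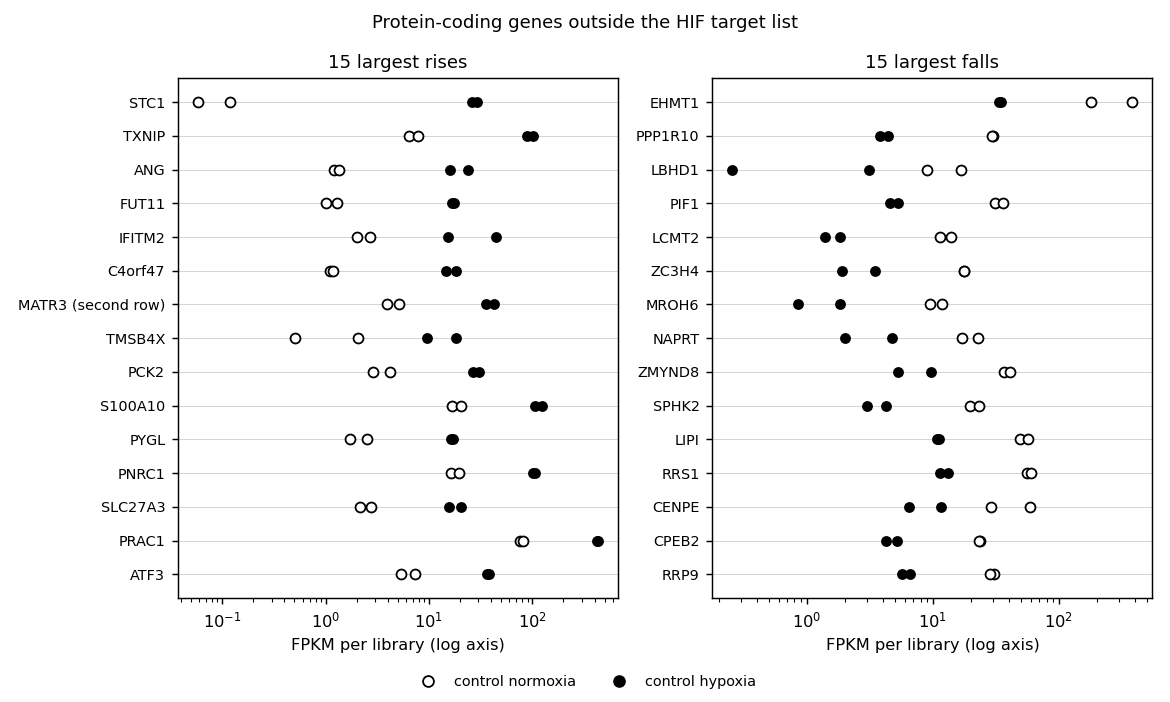
FPKM (log axis) of 15 rises and 15 falls with the widest change among called protein-coding genes outside the HIF target list, 1 point per library. Open circles are control normoxia and filled circles control hypoxia, and the groups do not overlap for any gene shown because this was a condition of the choice.

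Genes for proteins of the ribosome had the highest share of calls among the 41 lists. Of 78 genes for proteins of the cytosolic ribosome, all tested, 77 rose and none fell, with a median log2 change of 0.65 and a range from -0.18 to 1.05. RPL39, of the large subunit, rose from 111 and 113 to 214 and 195 FPKM (log2 change 0.86, SE 0.07, adjusted p = 0.0037). RPL41 rose from 419 and 420.4 to 791 and 726 FPKM. RPS29, of the small subunit, rose from 2202 and 2599.8 to 4642 and 4086 FPKM. The exception was RPS26, at 226 and 212 FPKM in normoxia and 187 and 198 FPKM in hypoxia (adjusted p = 0.081). The largest rise, RPL14 (log2 change 1.05), had libraries that differed within each group, at 965 and 639 FPKM in normoxia and 1855 and 1426 FPKM in hypoxia. Together these genes held 17.0% and 17.2% of the summed FPKM of the normoxia libraries and 22.8% and 22.7% of the hypoxia libraries. Ribosomal protein genes have many near-identical pseudogene copies, between which the counting could split reads.

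The factors that assemble ribosomes in the nucleolus moved the other way. Of 64 genes for processing factors, RNA polymerase I subunits and nucleolar proteins, 54 fell and 3 rose, with a median of -0.81. RRS1, needed for the large subunit, fell from 55.8 and 59.8 to 13.2 and 11.5 FPKM (log2 change -2.14, SE 0.11, adjusted p = 0.0023). RRP9, a component of the U3 particle that processes ribosomal RNA, fell from 30.6 and 28.3 to 6.64 and 5.74 FPKM. UTP20, of the small subunit processome, fell from 25.8 and 26.5 to 6.49 and 6.43 FPKM. UTP15, of the same complex, fell from 27.5 and 29.9 to 7.81 and 9.44 FPKM. NCL, nucleolin, remained abundant but was lower, from 2034 and 1999.7 to 1489 and 1512 FPKM (log2 change -0.43, adjusted p = 0.0035). NPM1, nucleophosmin, the most abundant of the list, was at 3279.6 and 3704 FPKM in normoxia and 3631 and 3587 FPKM in hypoxia and was not called (adjusted p = 0.56). The 3 that rose were FBL, the methyltransferase fibrillarin (from 615 and 585 to 890.5 and 893 FPKM), IMP3 and NOP10, and more than 50% of the exonic bases of IMP3 overlap another gene.

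**Figure D3:**
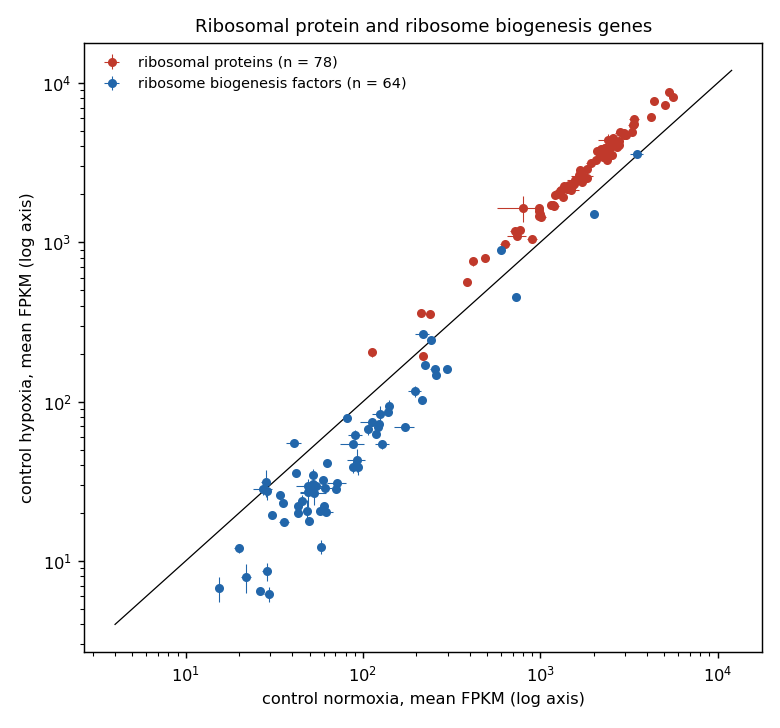
Mean FPKM in control normoxia against control hypoxia (log axes) of 78 ribosomal protein genes and 64 ribosome biogenesis genes, with error bars of 1 SD over 2 libraries and the line of equality. Ribosomal protein genes lie above the line with the exception of RPS26, and 54 biogenesis genes were called lower.

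Both ribosome patterns kept their direction when totals were made equal (medians 0.41 and -1.04). Without control hypoxia replicate 1, 65 ribosomal protein genes were called higher and 36 biogenesis genes lower, and without replicate 2, 68 and 38. Across protein-coding genes the change also moved with gene length: the median was 0.19 in the shortest 10% by exonic length and -0.21 in the longest 10%. By level, the median of the top 10% without the ribosomal protein genes was 0.07. The part of length in these results was not tested.

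Promoter sequences show a feature that the 2 ribosome groups do not share. In RefSeq windows (GRCh38.p14) of 250 bases before to 50 bases after the start, the letters CACGTG, the E-box that MYC and related factors bind, were found in 39.6% of 53 matched biogenesis genes, 4.84% of 62 ribosomal protein genes, 10.9% of 8161 matched protein-coding genes tested and 7.43% of all 27305 windows. The pattern reads the same on both strands. A match is a description of the letters and not a bound site. Stretches of the RRP9 promoter (chr3:51941895-51941959, minus strand) and the UTP20 promoter (chr12:101280045-101280114, plus strand) are shown for this motif, in capitals, 5′ to 3′ on the gene's strand.

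RRP9: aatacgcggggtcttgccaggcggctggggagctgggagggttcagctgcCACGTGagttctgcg
UTP20: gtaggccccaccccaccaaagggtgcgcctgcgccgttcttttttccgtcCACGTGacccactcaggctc

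Of the MYC network, MYC itself fell from 209 and 235 to 152 and 149 FPKM (log2 change -0.56, SE 0.08, adjusted p = 0.0088). Members that oppose MYC went in both directions. MXI1 rose from 12.5 and 14 to 27.4 and 23.7 FPKM, and MXD3 rose too. MXD4 rose from 11.6 and 11.4 to 31 and 28 FPKM. MGA fell from 11.3 and 13.7 to 5.23 and 5.21 FPKM, and MNT fell too. MAX, the shared partner, was not called (adjusted p = 0.21).

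Translation factors split. Of 32, 13 rose and 12 fell, with a median of 0.08 that turned to -0.16 under equal totals. EEF2, which moves the ribosome along the messenger, rose from 2304 and 1753 to 3554 and 3678 FPKM. EIF4B, a helper of the helicase eIF4A, rose from 162 and 171 to 276 and 278 FPKM. EIF4EBP1, which binds and holds back the cap-binding factor eIF4E, rose from 458 and 443 to 750.3 and 751 FPKM (log2 change 0.74, SE 0.04, adjusted p = 0.0026). EIF4E itself fell from 62.5 and 66 to 35.4 and 36.7 FPKM. Its scaffold EIF4G1 fell from 646 and 618 to 324 and 331 FPKM (log2 change -0.95, SE 0.05, adjusted p = 0.0023). EIF2S1, the alpha subunit of the factor that delivers the first tRNA, fell from 264 and 259 to 172 and 140.0 FPKM. Of 20 cytosolic tRNA synthetases, 3 rose and 6 fell. GARS, AARS and SARS rose. VARS fell most, from 147 and 117 to 68.1 and 68.8 FPKM.

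**Figure D4:**
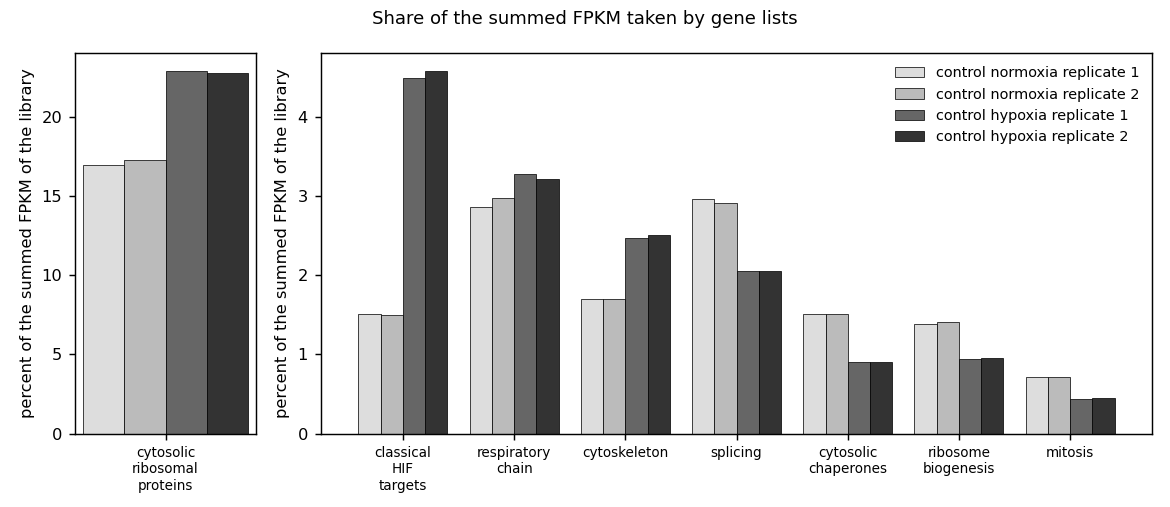
Percent of the summed FPKM of each control library held by 8 gene lists, with 1 bar per library and axes from 0. Ribosomal proteins, HIF targets, the respiratory chain and the cytoskeleton took larger shares in both hypoxia libraries, and splicing, chaperone, ribosome biogenesis and mitosis genes smaller ones.

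Nuclear genes of the respiratory chain did not fall as a group. Of 74 subunits, 46 rose and 3 fell, with a median of 0.39, which was 0.15 under equal totals with 30 higher and 10 lower. NDUFB5, of complex I, rose from 204 and 236 to 423 and 412 FPKM (log2 change 0.93, SE 0.09, adjusted p = 0.0043). COX8A, of complex IV, rose from 364 and 407 to 645 and 659.8 FPKM. UQCR11, of complex III, rose from 310.0 and 343 to 526 and 523 FPKM. NDUFS1, the largest subunit of complex I, fell from 83.6 and 81.2 to 61.6 and 63.9 FPKM (log2 change -0.39, adjusted p = 0.015), as did NDUFA5 and CYCS, cytochrome c. Without hypoxia replicate 1, 18 were called higher and none lower. The part of the length trend in this result was not tested. Genes of the mitochondrial genome were not analysed here.

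The mitochondrial ribosome differed from the cytosolic one. Of 79 genes, 6 rose and 26 fell, and the median was -0.15. PTCD3 fell from 161 and 171 to 93.8 and 77.9 FPKM (log2 change -0.95, SE 0.11, adjusted p = 0.0062). MRPL20 fell from 190.1 and 224 to 109 and 106 FPKM. MRPS24 rose from 113 and 122 to 157 and 159 FPKM. Of 29 enzymes of pyruvate oxidation and the citrate cycle, 5 rose and 3 fell, a lower share of calls (27.6%) than among all genes (45.5%). The median of 0.13 was -0.10 under equal totals. IDH2, the mitochondrial NADP-dependent isocitrate dehydrogenase, rose from 211 and 218 to 355 and 369 FPKM. DLAT, the E2 subunit of pyruvate dehydrogenase, fell from 52.8 and 48.2 to 28.3 and 28.3 FPKM (log2 change -0.81, adjusted p = 0.0053). PPARGC1A, a coactivator of mitochondrial genes, was at 5.35 and 1.86 FPKM in normoxia and 2.86 and 2.45 FPKM in hypoxia, below the filter.

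The shares within pairs of related enzymes of glucose use changed, and LDHA and PDK1 passed their partners. LDHA, which favours lactate, rose from 1285 and 1316 to 6018 and 5842 FPKM. LDHB rose from 2166 and 2255 to 2860.0 and 2783 FPKM, and LDHA went from 37.2% and 36.8% of the pair to 67.8% and 67.7%. HK1, the hexokinase of most tissues, rose from 1.95 and 1.41 to 49.3 and 42.3 FPKM and passed the filter through hypoxia only. HK2 rose from 19.1 and 20.3 to 75.6 and 80.5 FPKM, and the share of HK2 in the pair dropped from 90.7% and 93.5% to 60.5% and 65.6%. PDK1, an inhibitory kinase of pyruvate dehydrogenase, went from 12.1% and 12.8% of the sum of PDK1 and PDK2 to 66.8% and 72.5%. PDK1 passed the filter through hypoxia only. PLOD3, KDM3B and BNIP1, relatives of the called PLOD2, KDM3A and BNIP3L, were not called. NDUFA4L2, COX4I2 and COX7A1, subunits known to respond to oxygen or tissue, stayed under 1 FPKM in all 4 libraries.

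**Figure D5:**
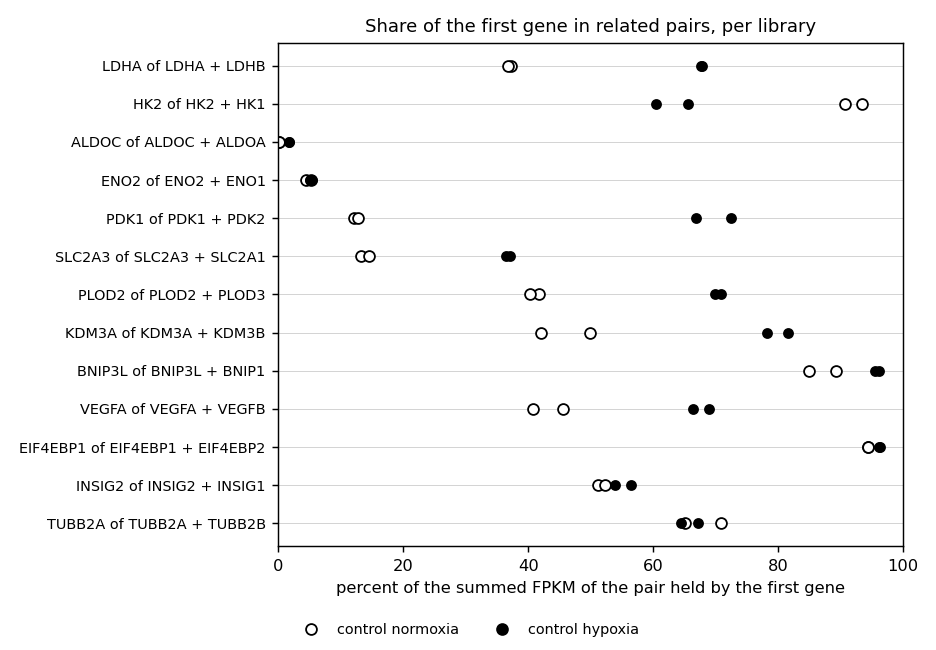
Share of the first gene in the summed FPKM of 13 pairs of related genes, per library. Open circles are control normoxia and filled circles control hypoxia; LDHA rose from 36.8% and 37.2% to 67.7% and 67.8% of the pair, whereas HK2 fell from 90.7% and 93.5% to 60.5% and 65.6%.

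More genes of glycogen and other sugar metabolism rose than fell. Of 18 tested genes of glycogen and sugar conversion (2 through 1 group), 10 rose and 2 fell (median 0.46). GYS1, glycogen synthase, rose from 35.1 and 34.6 to 133 and 152 FPKM (log2 change 2.0, SE 0.09, adjusted p = 0.002). Both phosphorylases rose, PYGL with the values above and PYGB from 13.3 and 13.2 to 28.6 and 31 FPKM. PYGL passed the filter through hypoxia only. PMM1, a phosphomannomutase, rose from 12.4 and 10.0 to 28.9 and 29.4 FPKM. Its relative PMM2 fell from 38.4 and 52.8 to 16.6 and 14.9 FPKM (log2 change -1.46, adjusted p = 0.007). GBE1, the branching enzyme, stayed under the filter, between 1.34 and 2.16 FPKM.

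Genes of DNA replication and of mitosis behaved differently. Of 54 replication genes, 14 rose (25.9%) and 16 fell (29.6%), close to the 22.4% and 23.1% of all tested genes, and the median was -0.05. E2F1, the factor that drives entry into S phase, rose from 48.5 and 53.3 to 75.7 and 78.4 FPKM (log2 change 0.59, SE 0.08, adjusted p = 0.0088). CDC6, which loads the replicative helicase, rose from 103 and 99.1 to 163 and 170.1 FPKM. ASF1B, a histone chaperone, rose from 30.5 and 31.1 to 76.3 and 71.5 FPKM. DBF4, the activator of the kinase that fires origins, fell from 55.9 and 57.7 to 31.4 and 29 FPKM. GINS3, a subunit of the replicative helicase, fell from 15.8 and 16.2 to 7.99 and 7.36 FPKM. CCND1, the G1 cyclin, fell little (from 667 and 661 to 566 and 584 FPKM, log2 change -0.21, adjusted p = 0.02). CDKN1A, a cyclin-dependent kinase inhibitor, rose but stayed low, from 1.27 and 1.55 to 6.81 and 7.02 FPKM, and passed the filter through hypoxia only.

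Of 79 mitosis genes (2 through 1 group), 49 fell and 5 rose (median -0.57), 14 of them falling at least 2-fold. CCNB1, the mitotic cyclin, fell from 286 and 307 to 104 and 109 FPKM (log2 change -1.47, SE 0.07, adjusted p = 0.002). PLK1, a mitotic kinase, fell from 149 and 136 to 60.4 and 53.2 FPKM. CDC20, the activator of the anaphase-promoting complex, fell from 163 and 170.1 to 70.6 and 68 FPKM. CENPE, a kinetochore motor, fell from 59.4 and 29 to 11.6 and 6.47 FPKM. The exceptions were SPC24, CENPU, CKS1B, PTTG1 and MYBL2, which rose, SPC24 from 31.1 and 45.7 to 82.1 and 79.2 FPKM (log2 change 1.08, adjusted p = 0.017). Without hypoxia replicate 1, 23 fell and 1 rose, and without replicate 2, 22 fell and 1 rose.

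The letters TTTGAA or TTCGAA, the cell cycle homology region of many mitotic promoters, were found on either strand in 70.1% of 67 matched mitosis promoters. They were in 6.82% of 44 replication promoters, 11% of the matched protein-coding genes and 16.6% of all windows. CCAAT was found on either strand in 70.1% of the mitosis and 56.8% of the replication promoters, against 37.7% of the matched protein-coding genes and 35.7% of all windows. Stretches of the PLK1 promoter (chr16:23678810-23678898, plus strand) and the CDC20 promoter (chr1:43358753-43358971, plus strand) show the first motif in capitals, which in CDC20 occurs once on each strand.

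PLK1: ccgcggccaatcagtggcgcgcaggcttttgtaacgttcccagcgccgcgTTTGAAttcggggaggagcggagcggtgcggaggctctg
CDC20: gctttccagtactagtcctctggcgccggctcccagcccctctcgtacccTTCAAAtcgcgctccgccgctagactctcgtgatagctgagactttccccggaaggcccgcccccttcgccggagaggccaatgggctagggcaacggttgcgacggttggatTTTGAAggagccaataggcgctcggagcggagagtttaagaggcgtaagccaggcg

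More DNA repair genes fell than rose, whereas nucleotide genes went in both directions. Of 56 repair genes (4 through 1 group), 20 fell (35.7%) and 5 rose (8.93%), against 23.1% and 22.4% of all tested genes. LIG4, the ligase of end joining, fell from 11.1 and 10.5 to 3.01 and 2.53 FPKM and passed the filter through normoxia only. ATR, the replication stress kinase, fell from 36.1 and 31.8 to 13.3 and 14.2 FPKM. ATRIP, the partner of ATR, fell from 6.75 and 7.19 to 1.58 and 2.1 FPKM and passed the filter through normoxia only. Among 32 nucleotide genes, TK1, thymidine kinase, rose from 77.9 and 91.5 to 227 and 214 FPKM, and TYMS and RRM2, also of thymidine and deoxyribonucleotides and singled out after their values were seen, rose as well. PFAS, CTPS1, UMPS and CAD, of the new synthesis of purines and pyrimidines, fell, PFAS from 49.8 and 51 to 15.4 and 22 FPKM (log2 change -1.40, adjusted p = 0.008). In all, 11 of the 32 rose (34.4%) and 8 fell (25.0%), with a median of -0.06.

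The integrated stress response slows translation through eIF2 and raises genes of amino acid supply through the factor ATF4. Of 35 tested genes of this list (4 through 1 group), 23 rose and 2 fell (median 0.75). ATF4 RNA rose moderately, from 259.9 and 273 to 331 and 333 FPKM (log2 change 0.32, SE 0.05, adjusted p = 0.012), a factor known to be controlled mainly at translation. DDIT3, encoding the factor CHOP, rose from 40.9 and 39.3 to 141 and 136 FPKM (log2 change 1.76, SE 0.07, adjusted p = 0.0017). ATF3 rose from 7.27 and 5.31 to 36.4 and 38 FPKM. ASNS, asparagine synthetase, rose from 38.6 and 37.1 to 164 and 161 FPKM. CHAC1, which degrades glutathione, rose from 4.67 and 3.65 to 21.4 and 21.7 FPKM. SESN2, a leucine sensor that holds back mTORC1, rose from 2.27 and 3.19 to 12.1 and 14 FPKM. CHAC1 and SESN2 passed the filter through hypoxia only. SLC7A11, the cystine importer and a known ATF4 target, fell from 18.1 and 18.3 to 6.42 and 6.05 FPKM (log2 change -1.41, SE 0.11, adjusted p = 0.0036), as did the glutamine carrier SLC38A1. ASNS shares 49.3% of its exonic bases with other annotated genes.

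The letters TGATGNAA, an ATF4 motif, were found on either strand in 20.0% of 30 matched promoters of this list, 1.54% of the matched protein-coding genes and 3.67% of all windows. Both printed stretches, of the ASNS promoter (chr7:97872419-97872526, minus strand) and the CHAC1 promoter (chr15:40953221-40953319, plus strand), hold 1 match each, shown in capitals; in CHAC1 it reads on the other strand.

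ASNS: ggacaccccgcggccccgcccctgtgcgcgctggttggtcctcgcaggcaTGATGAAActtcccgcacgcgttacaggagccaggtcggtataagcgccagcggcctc
CHAC1: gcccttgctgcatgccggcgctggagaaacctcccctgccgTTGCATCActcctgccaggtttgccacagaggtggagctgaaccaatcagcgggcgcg

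The core of the HIF site (ACGTG or GCGTG, of which CACGTG holds the first) was found on either strand in 79.2% of 48 matched promoters of HIF targets and 65.9% of the matched protein-coding genes, against 48.4% of all windows. It was not particular to HIF targets, with 92.5% of 53 ribosome biogenesis and 77.4% of 62 ribosomal protein promoters. It was in 60.7% of 61 respiratory chain and 62.7% of 67 mitosis promoters. Among the 365 matched protein-coding genes that rose at least 2-fold outside the HIF list it was in 61.6%, and among the 352 that fell at least 2-fold in 67.9%.

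Chaperones of the endoplasmic reticulum (ER) and of the cytosol differed. Of 40 ER folding genes (1 through 1 group), 13 rose (32.5%) and 5 fell (12.5%), against 22.4% and 23.1% of all tested genes. The median of 0.20 was -0.04 under equal totals, where 10 were called higher and 10 lower. HSPA5, the main ER chaperone, rose from 157 and 156 to 276 and 276 FPKM (log2 change 0.81, SE 0.05, adjusted p = 0.0026). P4HB, a protein disulphide isomerase, rose from 701 and 719 to 1409.7 and 1319.9 FPKM. HERPUD1, of ER-associated degradation, rose from 31.8 and 25.1 to 52.1 and 61.3 FPKM. Of 36 cytosolic chaperones and heat shock factors, 20 fell and 2 rose (median -0.43). HSPH1, a nucleotide exchange factor of HSP70, fell from 264 and 276 to 90.4 and 86.2 FPKM (log2 change -1.60, SE 0.06, adjusted p = 0.0017). STIP1, which links HSP70 to HSP90, fell from 430.2 and 450.3 to 201 and 214 FPKM. HSPA8, the constitutive HSP70, fell from 2702 and 2524 to 1738 and 1687 FPKM. The 2 that rose, HSPA1A and HSPA1B, are near-identical stress-induced copies whose reads could be split, and both stayed under 16 FPKM. Of 40 proteasome genes, 17 fell and 3 rose, PSME3, an activator cap, falling most (from 212 and 219 to 93.6 and 107 FPKM).

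More genes of lipid synthesis fell than rose, and more genes of lipid storage rose than fell. Of 35 genes of sterol and fatty acid synthesis, 17 fell and 3 rose (median -0.38). ACAT2 fell from 161 and 163 to 67.6 and 67.8 FPKM (log2 change -1.25, SE 0.06, adjusted p = 0.0021). FADS2, a desaturase, fell from 215 and 216 to 99.7 and 107 FPKM. TM7SF2, a sterol reductase, fell from 45.7 and 43.7 to 24.5 and 22.3 FPKM. HMGCS1, early in the sterol pathway, was at 45.8 and 44.2 FPKM in normoxia and 42.6 and 44.1 FPKM in hypoxia and was not called (adjusted p = 0.6). INSIG1, which retains the sterol sensor in the ER, rose from 7.94 and 7.13 to 22.2 and 20.6 FPKM with STARD4 and MSMO1. Of 20 tested lipid storage genes, 9 rose and 1 fell (median 0.36). Under equal totals 6 storage genes were called higher and 1 lower (median 0.12), and 3 synthesis genes higher and 24 lower (median -0.60). HILPDA, a lipid droplet protein that is also a HIF target, rose from 53.6 and 55.9 to 313 and 312 FPKM. PLIN2 rose from 5.24 and 4.8 to 13.4 and 12.2 FPKM. DGAT1, which makes triglyceride, rose from 58.3 and 48.7 to 89.6 and 99.3 FPKM. CPT1A, the entry to fatty acid oxidation, fell from 90.2 and 92.8 to 58.3 and 66 FPKM (log2 change -0.55, adjusted p = 0.012).

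Of the genes known to be activated by the Ewing fusion or used to mark Ewing sarcoma, more fell than rose. Of 42 tested (1 through 1 group), 27 fell and 7 rose (median -0.48). FLI1, the reads of which could come from the fusion or the normal gene, fell from 36.7 and 36.5 to 20.8 and 22.2 FPKM (log2 change -0.74, SE 0.09, adjusted p = 0.0062). NR0B1, a nuclear receptor, fell from 64.5 and 55.6 to 32.5 and 32 FPKM. SOX6 fell from 44.3 and 46.8 to 20.9 and 20.8 FPKM. PAX7 fell from 54.9 and 54.9 to 26.8 and 26.7 FPKM. STEAP2 fell from 31.4 and 30.4 to 13.2 and 13.6 FPKM. CD99, the diagnostic surface marker, rose from 306 and 325 to 417 and 406 FPKM (log2 change 0.38, adjusted p = 0.0089). GLI1, a factor of hedgehog signalling, rose from 13.9 and 9.41 to 19.8 and 20.2 FPKM, and FCGRT and ITM2A rose too. LOXHD1, the gene whose enhancer the study repressed in other cells, fell in these control cells from 156 and 169 to 93 and 91.1 FPKM (log2 change -0.81, SE 0.07, adjusted p = 0.0038).

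Of 28 tested genes that the fusion is known to hold down (3 through 1 group), 18 rose and 2 fell (median 0.60). CYR61, a matrix-bound signalling protein, rose from 10.8 and 8.55 to 50.6 and 49.2 FPKM (log2 change 2.26, SE 0.14, adjusted p = 0.0026). VIM, vimentin, rose from 93.3 and 93.1 to 285 and 277 FPKM. LOX, a collagen cross-linker that is also a HIF target, rose from 11.6 and 13.2 to 41.4 and 43.3 FPKM. TWIST1, a mesenchymal transcription factor, went against the rest and fell from 165 and 163 to 63.1 and 62.3 FPKM (log2 change -1.37, SE 0.06, adjusted p = 0.002), and CDH11 fell too. This list had 41 members, of which 13 were below the filter.

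In the matrix and cytoskeleton lists, more genes rose than fell. Of 29 tested matrix genes (59 listed, 3 tested through 1 group), 17 rose and 1 fell (median 0.61). COL6A2 rose from 13.1 and 14.9 to 69.4 and 60.1 FPKM (log2 change 2.13, SE 0.12, adjusted p = 0.0026). COL6A1, its partner in collagen VI, rose from 8.59 and 9.83 to 28.9 and 30.7 FPKM. HSPG2, perlecan, rose from 1.92 and 1.59 to 11.7 and 10.7 FPKM. LOXL2, a cross-linking enzyme, rose from 1.5 and 1.86 to 9.27 and 6.21 FPKM. HSPG2 and LOXL2 passed the filter through hypoxia only. LAMB1, a laminin chain, fell from 229 and 223 to 129 and 158 FPKM. Some fibroblast markers also rose: the 7 summed to 435 and 430 FPKM in normoxia and 646 and 668 FPKM in hypoxia, with THY1, COL1A1, COL1A2 and COL3A1 called higher. THY1 alone went from 79.7 and 78.4 to 198 and 201 FPKM. DCN, LUM and PDGFRB were not called, and PDGFRB had a log2 change of -0.28. The part of these markers in the result was not tested. Of 53 cytoskeleton genes (2 through 1 group), 30 rose and 4 fell. ACTG1, a cytoplasmic actin, rose from 803 and 822 to 3226 and 3128 FPKM (log2 change 1.97, SE 0.04, adjusted p = 0.00023). TUBB3, a neuronal tubulin, rose from 26.2 and 22.9 to 68.8 and 67.8 FPKM. DIAPH3, an actin nucleator, fell from 13.2 and 13.6 to 6.08 and 5.53 FPKM. RDX, radixin, which ties actin to the membrane, fell from 157 and 197 to 111 and 109 FPKM.

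Of 34 tested axon guidance genes (8 through 1 group), 9 rose (26.5%) and 7 fell (20.6%), near the 22.4% and 23.1% of all tested genes, and under equal totals 7 were called higher and 12 lower. EPHA3, an ephrin receptor, fell from 26.9 and 27.4 to 9.71 and 10.4 FPKM (log2 change -1.35, SE 0.10, adjusted p = 0.0034). NRP1, a receptor of semaphorins and VEGF, fell from 9.3 and 14.9 to 2.59 and 3.11 FPKM. SLIT2, a repellent ligand, fell from 13.2 and 10.4 to 3.67 and 4.8 FPKM. SEMA3F, a semaphorin, rose from 2.77 and 2.1 to 8.2 and 8.52 FPKM. NRP1 and SLIT2 passed the filter through normoxia only and SEMA3F through hypoxia only. NCAM1, a neural adhesion molecule, rose from 5.33 and 3.62 to 10.2 and 11.8 FPKM. Of 54 listed secreted factors 20 were tested (1 through 1 group), 10 rose and 4 fell. Besides STC1, the ephrin ligand EFNA1 rose from 15.9 and 16.5 to 42.7 and 36.3 FPKM (log2 change 1.23, SE 0.12, adjusted p = 0.0044). EFNA3, its relative, rose from 14.2 and 17.2 to 46.1 and 47.6 FPKM. TGFB3 and TGFB1 fell, TGFB3 from 101 and 81.7 to 65 and 61.2 FPKM (log2 change -0.52, adjusted p = 0.032). IGF2, a growth factor, was under 0.1 FPKM in every control library.

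Immediate early factors, which answer stress and growth signals within minutes, were measured here after 16 h. Of 30 listed, 18 were tested (3 through 1 group), and of these 12 rose and none fell (median 0.76). Under equal totals 10 were called higher and 2 lower, and with a filter at 1 FPKM 13 higher and 2 lower of 25. EGR2, below the filter, was at 4.81 and 4.72 FPKM in normoxia and 0.497 and 0.456 FPKM in hypoxia. JUND, of the AP-1 family, rose from 19.3 and 31.3 to 58.8 and 64.6 FPKM (log2 change 1.29, SE 0.24, adjusted p = 0.018). NFIL3, a repressor that also acts in the clock, rose from 2.51 and 3.03 to 8.53 and 9.15 FPKM. IER5 rose from 2.66 and 2.35 to 8.53 and 8.33 FPKM. NFIL3 and IER5 passed the filter through hypoxia only. FOS, their best-known member, was at 16.6 and 18.9 FPKM in normoxia and 21.3 and 10.6 FPKM in hypoxia and was not called. With only 3 libraries few of these calls remained: 4 without hypoxia replicate 1 and 2 without replicate 2.

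Brakes on growth gave another group. Of 30 tested (5 through 1 group), 13 rose and 5 fell. Besides TXNIP, its relative ARRDC4 rose from 3.4 and 3.47 to 13.4 and 13.5 FPKM and passed the filter through hypoxia only. CCNG2, a cyclin that slows the cycle, rose from 14.9 and 17.1 to 54.9 and 52.8 FPKM. TSC2, an upstream inhibitor of mTORC1, fell from 59.5 and 71.3 to 45.4 and 42.9 FPKM (log2 change -0.55, adjusted p = 0.022). Among 31 genes of BCL2 proteins and p53 targets, 8 rose (25.8%) and 6 fell (19.4%), near the 22.4% and 23.1% of all tested genes (6 passed through 1 group). GADD45A rose from 4.34 and 3.88 to 15.3 and 16.2 FPKM and passed the filter through hypoxia only. BCL2, a guard against apoptosis, fell from 7.62 and 6.46 to 2.99 and 3.4 FPKM and passed the filter through normoxia only. MDM2, the ligase of p53, fell from 82.4 and 111 to 37 and 54.8 FPKM.

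Among genes of antigen presentation, more rose than fell. Of 31 tested genes of MHC class I and the interferon response (4 through 1 group), 18 rose and 3 fell (median 0.42). HLA-E rose from 14.2 and 16 to 54 and 58.8 FPKM (log2 change 1.83, SE 0.11, adjusted p = 0.0026). HLA-C rose from 27 and 32.9 to 93.7 and 84.9 FPKM. IFITM1 rose from 17.4 and 18.2 to 49.8 and 59.5 FPKM. HLA and IFITM genes are families of close copies between which reads could be shared. EIF2AK2, a sensor of double-stranded RNA, fell from 27.9 and 28.9 to 20.6 and 18.5 FPKM.

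In RNA processing, more genes fell than rose. Of 73 splicing genes, 43 fell and 8 rose (median -0.31). SRSF3, an SR protein, fell from 506 and 494 to 169 and 163 FPKM (log2 change -1.59, SE 0.05, adjusted p = 0.0011). HNRNPM fell from 929 and 898 to 383 and 365 FPKM. U2AF1, which reads the end of the intron, fell from 26.6 and 28 to 11.5 and 10.2 FPKM. CLK3, a kinase of SR proteins, rose from 54.5 and 63.3 to 99.5 and 111 FPKM (log2 change 0.83, adjusted p = 0.0081). CIRBP, an RNA-binding protein known from cold stress, rose from 310.3 and 345 to 539.8 and 504 FPKM. Among 26 hosts of small nucleolar RNAs, 7 rose (26.9%) and 10 fell (38.5%), against 22.4% and 23.1% of all tested genes. SNHG5 rose from 232 and 249 to 333 and 351 FPKM, and ZFAS1 rose too. SNHG4 fell from 76.1 and 83.9 to 27.9 and 23.2 FPKM (log2 change -1.61, SE 0.12, adjusted p = 0.0035), and SNHG12 fell too.

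Of 33 2-oxoglutarate oxygenases, 6 rose (18.2%) and 8 fell (24.2%), near the 22.4% and 23.1% of all tested genes, and under equal totals 4 were called higher and 16 lower (2 passed through 1 group). ASPH rose from 41.5 and 41 to 129 and 122 FPKM (log2 change 1.58, SE 0.07, adjusted p = 0.002). ALKBH5, which removes methyl groups from RNA, rose from 22 and 18.8 to 49.7 and 49.2 FPKM. KDM6A, a histone demethylase, fell from 17.5 and 13.6 to 8.84 and 5.45 FPKM (log2 change -1.04, adjusted p = 0.035). TET3 fell from 12.3 and 11.6 to 6.05 and 6.54 FPKM. Of 42 antioxidant and metal genes, 15 rose and 6 fell, which became 10 and 15 under equal totals (1 passed through 1 group). CAT, catalase, rose from 17.8 and 17.9 to 48.6 and 44 FPKM (log2 change 1.32, SE 0.09, adjusted p = 0.0033). NQO1, a target of NRF2, fell from 41.8 and 40.3 to 24.2 and 23.7 FPKM. Among genes of oxygen sensing, HIF3A, an inhibitory HIF subunit, rose from 5.71 and 6.93 to 18.6 and 21.4 FPKM (log2 change 1.52, adjusted p = 0.0047). ARNT, the HIF partner, rose from 14 and 16.1 to 27.7 and 28.6 FPKM.

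The remaining lists were mixed in direction. Over all tested genes, 22.4% rose and 23.1% fell. Of 54 tested genes of autophagy and the lysosome, 13 rose (24.1%) and 12 fell (22.2%). CTSB, a cathepsin, rose from 167 and 175 to 391.8 and 409.7 FPKM (log2 change 1.22, SE 0.06, adjusted p = 0.002). ATP6V0A1, of the proton pump, fell from 25.5 and 37.4 to 17 and 13.8 FPKM. Of 33 histone and chromatin genes, 6 rose (18.2%) and 12 fell (36.4%). ARID1A, a subunit of a remodelling complex, fell from 90.1 and 84.6 to 36.4 and 40.5 FPKM (log2 change -1.16, adjusted p = 0.0035). Of 31 Wnt, Notch and hedgehog genes, 7 rose (22.6%) and 4 fell (12.9%). NOTCH3, a receptor, rose from 37.2 and 30.1 to 68.3 and 61.4 FPKM. WNT5A, a ligand, fell from 16.5 and 14.3 to 8.1 and 7.09 FPKM. Of 19 ion and acid-base transporters (2 through 1 group), 5 rose (26.3%) and 5 fell (26.3%), near the shares of all tested genes. SLC6A6, a taurine carrier, rose from 8.02 and 8.75 to 36.5 and 37.4 FPKM (log2 change 2.02, adjusted p = 0.0023). Of 11 clock genes (2 through 1 group), 3 rose (27.3%) and 1 fell (9.09%). CRY2, a repressor of the clock, rose from 13.1 and 12.1 to 27.1 and 30.2 FPKM. The medians of the Wnt, transporter, clock and autophagy lists, like those of oxygen sensing, of the p53, axon guidance and antioxidant genes, were above 0 and turned below 0 under equal totals, where 8 autophagy and lysosome genes were called higher and 18 lower.

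Of 12 tested long non-coding RNAs on a list (1 through 1 group), 4 rose (33.3%) and 2 fell (16.7%), against 22.4% and 23.1% of all tested genes. MIR210HG, the host of a microRNA induced by HIF, rose from 6.27 and 4.94 to 178 and 192 FPKM. MEG3, an imprinted RNA, rose from 42.1 and 39.9 to 105 and 117 FPKM (log2 change 1.41, SE 0.09, adjusted p = 0.0026). HIF1A-AS2, on the strand opposite HIF1A and overlapping it, rose from 0.657 and 0.448 to 36.4 and 35.6 FPKM. It passed the filter through hypoxia only. The libraries do not mark strand, and 5.93% of its exonic bases overlap exons of another gene, where the reads cannot be told apart. TUG1 and NORAD fell, TUG1 from 128 and 129 to 68.8 and 67.6 FPKM (log2 change -0.90, adjusted p = 0.003).

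The eKD libraries, labelled as hypoxia, put some of these levels beside the control values. STC1 was at 24.6 and 21.1 FPKM in the eKD1 libraries, and at 47.7 and 50.2 FPKM in those of eKD2, against 26.2 and 29.1 FPKM in control hypoxia. TXNIP was at 68.4 and 66.9 FPKM in the eKD1 libraries, and at 129 and 109 FPKM in those of eKD2, against 88.6 and 101 FPKM. In eKD1 PCK2 lay below both control hypoxia libraries and in eKD2 above both, at 9.71 and 8.72 FPKM in the eKD1 libraries, and at 80.3 and 80.3 FPKM in those of eKD2. RRS1 was at 22.5 and 21.2 FPKM in the eKD1 libraries, and at 14.4 and 17.5 FPKM in those of eKD2, between control hypoxia (13.2 and 11.5 FPKM) and control normoxia (55.8 and 59.8 FPKM). LIPI was at 23.4 and 26.5 FPKM in the eKD1 libraries, and at 21.1 and 19 FPKM in those of eKD2, against 10.8 and 11.2 FPKM in control hypoxia. These comparisons use the control hypoxia libraries of the main comparison and were not tested here.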

How the data were processed

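RNA was sequenced from 8 libraries in 4 groups of 2, of which the 4 control libraries entered the fit. Per the study's methods, poly-A libraries made with a kit that does not mark strand were read from one end, aligned with STAR to GRCh37 and quantified with Cufflinks. The deposited FPKM values were made by the authors with Cuffnorm, and the processing notes name hg19. They hold no counts, so depth is unknown and was compared only relatively, from the steps between low values (under 0.5 FPKM). No per-sample column was left unused.

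A gene was tested at 5 FPKM or more in at least 2 of the 4 control libraries. Differences of log2(FPKM + 1) were tested with limma 3.58.1 (R 4.3.3), with a variance trend and Benjamini-Hochberg adjustment over all tested genes. In simulated data with 200 of 10814 genes changed, 39.5% were called at a log2 change of 1 and 86% at a log2 change of 2, with 3 and 14 false calls. The simulated variances came from the spread that the fit itself assumes. In the real libraries 45.5% of genes were called, a far larger share than was changed here. These values therefore check the code and do not give the power of the real comparison.

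Gene lists and members were chosen with earlier results of these data known. Genes were named by size: the 15 largest rises and falls outside the HIF list, up to 4 called members of each list in each direction, and a few key genes and pairs. PLK1, CDC20, MYBL2, TYMS, RRM2, MAX, NPM1, RPS26 and FOS fall outside this rule and were chosen after their values were seen. Gene types, positions and exon overlap came from GENCODE 44 on GRCh37. Promoter windows came from RefSeq on GRCh38.p14, another build, and 8407 of 10814 tested genes matched one by symbol. Alternatives covered the pseudocount, filter, scaling, fit and each library. The knockdown libraries were used only for values given side by side and in 1 alternative fit. Some genes are not reported here.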

Additional observations from a re-analysis of the deposited data

How the results depend on the processing

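With all 4 libraries, between 3655 and 5423 genes were called over 12 alternatives. The 3655 came with no filter on low values, where 24848 genes were tested. Under equal FPKM totals 1474 genes were called higher and 3949 lower, and rises and falls of at least 2-fold numbered 410 and 968. With a pseudocount of 5, which shrinks low genes, 342 rises and 245 falls reached 2-fold. Leaving out each library in turn gave 1469 to 3751 calls, 706 to 1993 higher, 763 to 1839 lower, 391 to 688 rises of 2-fold or more and 397 to 516 such falls, and the lone library of a group was then assumed to vary like the other group. The lowest of these counts came without a hypoxia library. The fit with the replicate number as a block called 4058 genes (2004 higher, 2054 lower). Same-numbered libraries did not deviate together across genes (correlation -0.0425). With 2 libraries a group this cannot show whether the replicate numbers pair the libraries, and the main fit used no block. Of 341 named genes tested, none reversed under 16 alternatives, 266 kept their side of the threshold under the 12 with all 4 libraries, and 154 lost their call without some library. Under equal totals the median log2 change turned below 0 for pyruvate oxidation and the citrate cycle (-0.10), translation factors (-0.16), ER folding (-0.037), Wnt and Notch (-0.12), the clock (-0.092), apoptosis and p53 (-0.060), oxygen sensing (-0.18), ion transport (-0.20), autophagy and the lysosome (-0.23), axon guidance (-0.19) and antioxidant genes (-0.22), of which the last 3 had main medians within 0.04 of 0 and also changed sign without some library. The MYC network had a median of 0.25 without the filter and with a filter at 1 FPKM, and the long non-coding list of -0.90 with protein-coding annotation alone, where 1 gene remained. Requiring an exonic length of at least 300 bases, chosen after seeing the data, gave 5138 calls of 10557 genes. Depth sets a limit for genes of a few FPKM, where 2 libraries a group are few.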
